A study of Mus musculus with 2 samples.

Results

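Transcripts of 10 genes that report on or feed back to canonical WNT signalling were examined, taken by symbol from the 32285 genes of the deposited gene table; each of the 10 symbols was found once. They were Axin2, Sp5, Nkd1, Notum, Dkk1, Rnf43 and Znrf3, which are feedback regulators of the pathway, and Lef1, Tcf7 and Tcf7l1, which are DNA-binding factors of the TCF/LEF family. They were compared between 2 droplet single-cell RNA libraries of mouse embryonic stem cells and, within the LB library, between cells with and without a transcript of T (brachyury), a primitive streak factor. The labels give both cultures as strain R1, kept for 72 hours in N2B27 medium. LB cells received LIF and BMP4 on gelatin. LBPXRS cells received LIF and BMP4 together with PD0325901 (a MEK inhibitor), Xav939 (a tankyrase inhibitor), SB431542 (an inhibitor of the NODAL and activin receptors) and Resorcyclic lactone, on fibronectin. Each condition is 1 library, so medium, substrate and culture cannot be told apart, and no test across samples was possible.

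In canonical WNT signalling, ligands bind Frizzled and Lrp receptors and stop the destruction complex, built on Axin proteins, from degrading beta-catenin, which then joins TCF/LEF factors on DNA. Tankyrase marks Axin proteins for degradation, so its inhibition strengthens the destruction complex. Many regulators of the pathway are also its targets and act as feedback. In mouse embryonic stem cells Tcf7l1 acts mainly as a repressor of self-renewal genes, while Tcf7 and Lef1 are the members better known for activation, and WNT signalling is needed for T expression in the primitive streak.

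After filtering, LB held 1783 cells (median 25418 UMIs, counts of unique molecular identifiers) and LBPXRS 2705 cells (median 19058 UMIs). Levels are CPM, the UMIs of a gene per 1000000 UMIs summed over a group of cells, each with an exact 95% Poisson interval that covers counting error only. Each molecule is counted once at its 3′ end, so CPM values are not divided by gene length. Differences are log2 ratios of CPM + 1. Both libraries expressed the stem cell factor Pou5f1, in 94.3% of LB and 99.5% of LBPXRS cells. Among kept cells, 8 barcode sequences occurred in both libraries. The cultures also differed across the genome: 4 Y-linked genes had 2872 UMIs in LB and 1 in LBPXRS, and genes of chromosomes 11 and 8 had median log2 ratios of LBPXRS to LB of -0.55 and -0.59, against -0.14 over the 12618 genes whose CPM averaged at least 1 over the libraries. Axin2, Tcf7, Rnf43, Znrf3 and Notum lie on chromosome 11 and Nkd1 on chromosome 8.

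In GENCODE M21 (GRCm38) the gene of Axin2 spans chr11:108920349-108950783, that of Tcf7 chr11:52252371-52283014, that of Rnf43 chr11:87662722-87735539, that of Znrf3 chr11:5276324-5444847 and that of Notum chr11:120653788-120661175. Nkd1 spans chr8:88521354-88594884, Sp5 chr2:70474923-70477729, Lef1 chr3:131110471-131224356, Tcf7l1 chr6:72626378-72789254 and Dkk1 chr19:30545863-30549665.

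Promoter sequences were read because 6 of the genes were lower together in LBPXRS. RefSeq windows (GRCm38.p6) were found for 8 of the 10 genes, all but Znrf3 and Notum, and the 250 bases before each annotated start were searched on both strands for CTTTGAT and CTTTGAA, forms of the TCF/LEF binding motif. A match was found for Sp5 and Dkk1, in 2 of 13 windows, while 7.48% of all 32851 windows held one. The windows of Dkk1 and Tcf7l1 lie partly within the gene as GENCODE draws it. Those of Nkd1 and Rnf43, and some of those of Lef1 and Tcf7, lie wholly within it. The CTTTGAA of Dkk1 starts 117 bases before the RefSeq start. The window of Sp5, the gene of the 10 with the largest fold difference between the libraries, is chr2:70474673-70474922 on the plus strand, shown with its CTTTGAT in capitals, 104 bases before the start. A match is a description of letters, not a measured binding site.
Sp5: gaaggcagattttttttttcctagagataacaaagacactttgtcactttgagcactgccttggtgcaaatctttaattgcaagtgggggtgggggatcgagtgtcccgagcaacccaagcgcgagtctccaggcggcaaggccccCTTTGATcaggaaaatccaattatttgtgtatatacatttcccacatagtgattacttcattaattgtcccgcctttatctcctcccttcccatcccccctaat

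Sp5, Axin2 and Lef1 were close to absent from LBPXRS, and Nkd1 and Dkk1 were several-fold lower. Notum was 2.41-fold lower, Znrf3 and Tcf7 were lower by less, and Tcf7l1 was the one gene of the 10 with a higher level in LBPXRS. By size alone, 6 of the 9 genes past that filter were at least 2-fold lower in LBPXRS and 0 were at least 2-fold higher. Over all genes past the same filter, 11.6% were at least 2-fold lower and 8.53% at least 2-fold higher. At 4-fold, 4 of the 9 were lower (Sp5, Lef1, Axin2 and Nkd1), against 2.83% of all genes, and 0 higher, against 1.69%. The median log2 ratio over the 10 genes was -1.43. Axin2, Sp5, Lef1 and Dkk1 were under 1 CPM in LBPXRS and passed the filter through their LB level.

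Sp5, a zinc finger factor induced by WNT signalling, had 830 UMIs in LB and 6 in LBPXRS. Its level was 18.2 CPM in the first (17.0 to 19.5) and 0.116 CPM in the second (0.0425 to 0.252), 158-fold lower (72.1 to 431 by counting error). The 6 UMIs in LBPXRS lay in 6 different cells. Lef1 went from 18.3 CPM (17.1 to 19.6) to 0.405 CPM in LBPXRS (0.251 to 0.619), 45.1-fold lower (29.3 to 73.3). Axin2, the inducible scaffold of the destruction complex, had 16.8 CPM in LB and 0.579 CPM in LBPXRS, 29.0-fold lower (20.1 to 43.3). The intervals of the libraries do not overlap for any of these 3 genes.

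Dkk1, a secreted inhibitor that binds Lrp receptors, was measured at 3.19 CPM with LB (145 UMIs, 2.69 to 3.75) against 0.193 CPM with LBPXRS (10 UMIs, 0.0925 to 0.355), 16.5-fold lower (8.73 to 35.2). Its LB transcripts were held by few cells: 60 of 1783 cells had any, and the richest 1% of cells held 65.5% of the UMIs. Nkd1, which binds Dishevelled and dampens the signal, was at 10.4 CPM with LB (9.48 to 11.4) against 1.43 CPM with LBPXRS (1.12 to 1.79), 7.28-fold lower (5.69 to 9.44). Both genes were lower in LBPXRS by more than counting error.

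The remaining inhibitors moved less. Notum, an enzyme that inactivates WNT ligands by removing their lipid, was at 7.17 CPM with LB (6.41 to 7.99) against 2.97 CPM with LBPXRS (2.52 to 3.48). Znrf3, a ubiquitin ligase that removes Frizzled receptors from the cell surface, had 10.2 CPM (9.31 to 11.2) and 4.96 CPM (4.37 to 5.60), 2.06-fold lower (1.77 to 2.41); its log2 ratio of -0.91 missed the 2-fold rule on the log2(CPM + 1) scale. Rnf43, a ligase of the same function, was below the filter, with 26 UMIs against 8, a 3.70-fold lower level in LBPXRS (1.63 to 9.46).

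Among the TCF factors, Lef1 stood apart from Tcf7 and Tcf7l1. Tcf7 was at 44.8 CPM with LB (42.9 to 46.8) against 28.6 CPM with LBPXRS (27.2 to 30.1), a log2 ratio of -0.63. Tcf7l1 was at 26.6 CPM with LB (25.1 to 28.1) against 35.9 CPM with LBPXRS (34.3 to 37.6), a log2 ratio of 0.42. With TMM scaling, which moved the median of all genes from -0.14 to 0.00310, the value of Tcf7l1 was 0.57; over the 10 alternatives tried it ranged from 0.17 to 0.57.

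**Figure D1:**
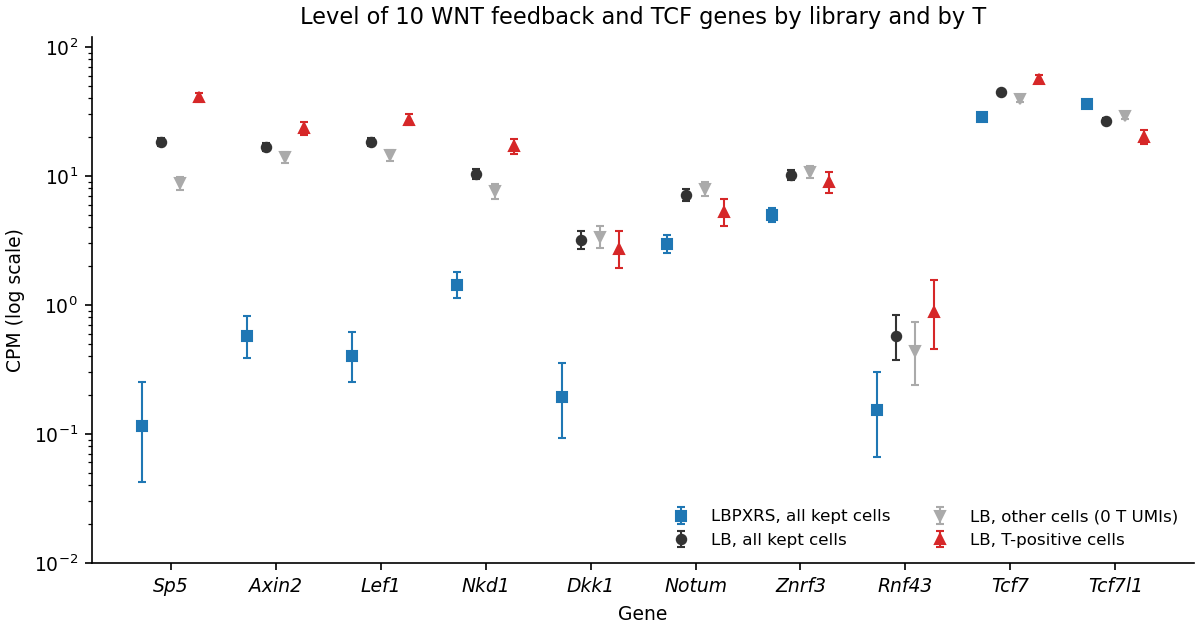
Level of each gene in CPM (logarithmic axis) in LBPXRS, in LB, and in LB cells without and with a T UMI; points are summed UMIs over the cells of 1 library and bars are exact 95% Poisson intervals. Sp5, Axin2, Lef1, Dkk1 and Rnf43 lie below 1 CPM in LBPXRS (0.116 to 0.579), while Tcf7l1 lies above its LB level.

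The values were also set against the median of each gene's chromosome. With the median of the other genes of its chromosome subtracted, Tcf7 had a log2 ratio of -0.08, Znrf3 -0.36 and Notum -0.49, and Rnf43 changed sign to 0.10. Notum was then no longer 2-fold lower, nor with TMM scaling (-0.91). Axin2 and Nkd1, on the same chromosomes, were at -2.94 and -1.64, so that Nkd1 was then not 4-fold lower. Sp5 (chromosome 2), Lef1 (chromosome 3) and Dkk1 (chromosome 19) were at -4.004, -3.65 and -1.76, and Tcf7l1 (chromosome 6) at 0.48. The differences of Tcf7, Znrf3 and Notum were of the order of the shift of chromosome 11, whose part in them was not tested.

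The libraries also differed in marker genes of other cell types, whose part in the results over all cells was not tested. Summed markers of extraembryonic mesoderm (7 genes, none at 0 in both libraries) were 198 CPM in LB and 2.49 CPM in LBPXRS, those of the primitive streak (7 genes) 281 and 28.1 CPM, and those of naive pluripotency (10 genes) 1010 and 1579 CPM. Formative or primed markers (8 genes) were at 622 and 143 CPM, nascent mesoderm markers (7 genes) at 60.1 and 3.20, and germ cell markers (5 genes) at 25.9 and 50.1. Single genes could go against their sum. Dppa3, a naive marker, was at 26.1 to 54.1 CPM over the LBPXRS clusters. It was at 222 CPM in the LB cluster called naive pluripotent-like and at 71.8 CPM in the other LB cells. LBPXRS was therefore also compared with the 590 LB cells of the naive pluripotent-like cluster. Against these cells Axin2, Lef1 and Sp5 were still lower in LBPXRS. Axin2 had 9.31 CPM in the naive pluripotent-like cells (7.90 to 10.9), 16.1 times its LBPXRS level (10.8 to 24.6). Lef1 had 8.10 CPM (6.79 to 9.59), 19.99 times its LBPXRS level (12.6 to 33.4). Sp5 had 4.96 CPM (3.94 to 6.15), 42.8 times its LBPXRS level (18.8 to 120).

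Notum was 4.25-fold lower in LBPXRS than in the naive pluripotent-like cells (3.44 to 5.27), a larger difference than against all LB cells. Nkd1 and Dkk1 did not differ from LBPXRS beyond counting error there: Nkd1 had 1.51 CPM in the naive pluripotent-like cells (0.978 to 2.23) against 1.43, a ratio of 1.06 (0.644 to 1.69), and Dkk1 had 5 UMIs (0.302 CPM), a ratio of 1.57 (0.420 to 5.03). Znrf3 kept a ratio of 1.90 (1.55 to 2.33), Tcf7 one of 1.13 (1.02 to 1.25), and Rnf43, with 3 UMIs, one of 1.17 (0.201 to 4.89). Tcf7l1 was higher in LBPXRS, with a log2 ratio of 0.17. Beyond counting error, all LBPXRS cells were thus lower than the naive pluripotent-like LB cells in Axin2, Lef1, Sp5, Notum, Znrf3 and, by the smallest ratio of these 6, Tcf7, and not in Nkd1, Dkk1, Rnf43 or Tcf7l1. Axin2, Notum, Znrf3, Tcf7 and Rnf43 lie on chromosome 11, whose median log2 ratio was -0.55 against all LB cells, and Nkd1 on chromosome 8. Chromosome medians were not subtracted against the naive pluripotent-like cells, so their part in these ratios was not tested. No LBPXRS cluster got that name, which needed markers raised 2-fold against the rest of its own library. A missing name therefore does not show that such cells were absent. Over the LBPXRS clusters Klf4 was at 150 to 259 CPM, against 74.8 in the naive pluripotent-like cells. Esrrb (50.2 to 68.3 against 46.9) and Tfcp2l1 (76.0 to 122 against 40.4) were also higher. Zfp42 (340 to 679 against 880) and Dppa3 were lower. Cells of 1 class were not compared between the libraries.

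RNA freed from other cells can enter droplets. The level of T in the naive pluripotent-like cells was 4.25% of that in all LB cells. If all of it were free RNA with the make-up of the kept LB cells, the same share would give 0.714 CPM of Axin2, 0.776 of Sp5 and 0.778 of Lef1, where 9.31, 4.96 and 8.10 CPM were found. Free RNA itself was not measured, and its part in these levels was not tested. For Nkd1 it would give 0.442 of 1.51 CPM and for Dkk1 0.136 of 0.302 CPM.

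**Figure D2:**
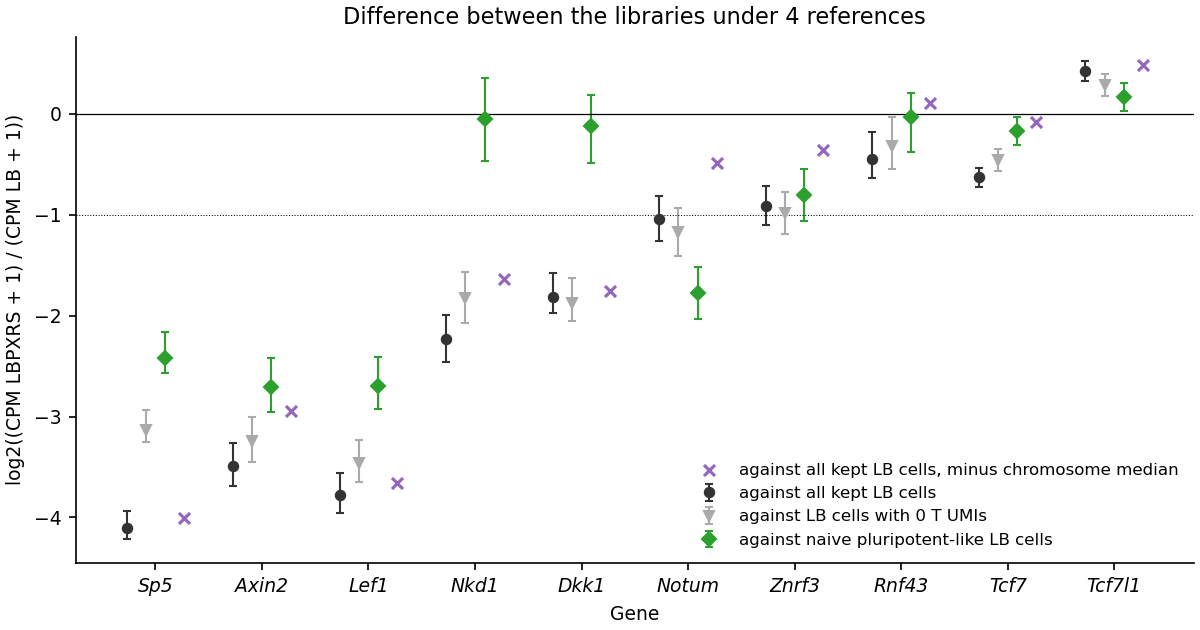
log2 ratio of LBPXRS to LB for each gene against all kept LB cells, LB cells with 0 T UMIs and naive pluripotent-like LB cells (bars: 95% counting intervals), and, as crosses, against all LB cells after subtraction of the chromosome's median. Sp5, Axin2 and Lef1 stay below -2 under all 4 references, whereas Nkd1 and Dkk1 reach -0.05 and -0.13 against naive pluripotent-like cells.

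Shares of cells with at least 1 UMI were compared after each cell had been reduced by random draw to 5000 of its UMIs; 50 LB and 84 LBPXRS cells were too shallow. Axin2 was found in 7.39% of LB cells (6.20 to 8.72, exact binomial) against 0.114% in LBPXRS (0.0236 to 0.334), Sp5 in 6.81% (5.67 to 8.10) and 0.0763% (0.00924 to 0.275), and Lef1 in 7.85% (6.62 to 9.21) and 0.229% (0.0841 to 0.498). Without thinning these shares were 29.4% and 1.07%, 20.9% and 0.222%, and 29.2% and 0.739%, at median depths of 25418 and 19058 UMIs. Tcf7 was found in 20.7% and 13.2% of the thinned cells, and Tcf7l1 in 12.2% (10.7 to 13.9) and 15.9% (14.5 to 17.4). At least 2 of the 10 genes were found together in 15.9% of thinned LB cells and 3.66% of thinned LBPXRS cells. No cell class is known to lack all of these genes, so a background share was not measured.

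Each library was clustered with the 10 genes and the other WNT pathway genes left out of the clustering. LB gave 7 clusters, of which 5 could be named from markers, and LBPXRS gave 5 clusters without a name. The 254 cells called primitive streak-like were also led by interferon-induced genes (Isg15, Rtp4, Ifi27l2a), and the 75 trophoblast-like cells by the chemokines Cxcl10 and Ccl2. The name primitive streak-like rests on T, Mixl1, Fgf8 and Evx1. Eomes (2.67 against 14.1 CPM in the other LB cells), Gsc (3.38 against 6.04) and Nodal were not raised there. The extraembryonic mesoderm-like cells had more Mixl1 (66.4 against 35.04 CPM), Eomes (44.5), Gsc (18.4) and Evx1 (29.7 against 21.3), and less T, Fgf8 and Nodal. An LB cluster of 61 cells without a name had a median of 10944 UMIs.

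Sp5 was highest in the primitive streak-like cells (37.0 CPM, 32.1 to 42.4), followed by formative or primed pluripotent-like cells (31.9, 28.01 to 36.2), extraembryonic mesoderm-like cells (24.4, 21.2 to 27.98) and trophoblast-like cells (22.6, 16.6 to 30.1). In this order each cluster's counting interval overlapped that of its neighbour except between formative or primed pluripotent-like and extraembryonic mesoderm-like cells. The naive pluripotent-like cells, at 4.96 CPM, had less Sp5 than any of these 4 clusters. Axin2 followed the same split with smaller differences, from 28.4 CPM in extraembryonic mesoderm-like cells (24.9 to 32.2) to 9.31 in naive pluripotent-like cells.

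Nkd1 was highest in the extraembryonic mesoderm-like cells, and Lef1 there and in the primitive streak-like cells. Lef1 had 36.8 CPM in the former (32.8 to 41.1) and 29.9 in the latter (25.5 to 34.8), with overlapping intervals, and 16.5 in formative or primed pluripotent-like cells (13.7 to 19.6). Nkd1 had 27.2 CPM in the extraembryonic mesoderm-like cells (23.9 to 31.0), 14.5 in formative or primed pluripotent-like cells and 12.6 in primitive streak-like cells, the last 2 with overlapping intervals. Dkk1 was concentrated further: the trophoblast-like cells had 27.4 CPM (20.8 to 35.5) and the extraembryonic mesoderm-like cells 8.26 (6.45 to 10.4), and these 2 clusters held 57 and 71 of its 145 UMIs. A single trophoblast-like cell without T held 28 of them; without it, a choice made after seeing the data, the trophoblast-like level was 14.1 CPM (9.47 to 20.3), which overlaps that of the extraembryonic mesoderm-like cells, and the fold between LB and LBPXRS was 13.3 (7.001 to 28.5).

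Notum ran the other way. It had 12.6 CPM in naive pluripotent-like cells (11.0 to 14.5) and 26.9 in the shallow cluster of 61 cells (16.4 to 41.6), against 2.09 in formative or primed pluripotent-like cells (1.20 to 3.40) and 1.40 in extraembryonic mesoderm-like cells (0.721 to 2.44). Across the 7 LB clusters, log2(CPM + 1) of Notum and Nkd1 had a Pearson correlation of -0.89, and that of Nkd1 and Axin2 0.96. These correlations describe 7 clusters of 1 library and carry no p-value.

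Tcf7l1 varied within both libraries. In LB it was highest in formative or primed pluripotent-like cells (41.3 CPM, 36.9 to 46.1) and lowest in the 61-cell cluster and the primitive streak-like cells (12.1 and 12.3 CPM). In LBPXRS it ranged from 49.4 CPM (46.2 to 52.7) in the cluster of 1020 cells led by Krt8 and Krt18 to 17.1 CPM (15.1 to 19.3) in the cluster of 763 cells led by Gata2, and to 15.7 CPM (5.77 to 34.2) in a cluster of 80 shallow cells. Tcf7 varied less, from 61.7 CPM in primitive streak-like cells (55.4 to 68.6) to 32.3 in naive pluripotent-like cells, and from 31.9 to 23.6 CPM over the LBPXRS clusters. Znrf3 ranged from 13.6 CPM in formative or primed pluripotent-like cells (11.1 to 16.5) to 6.73 CPM in the 61-cell cluster (5 UMIs, 2.18 to 15.7). Its interval in formative or primed pluripotent-like cells lay above those of naive pluripotent-like cells (9.43, 8.01 to 11.03) and of the unnamed cluster of 169 cells (7.52, 5.14 to 10.6). In LBPXRS no cluster was above 1.04 CPM of Axin2, 0.721 of Lef1 or 0.158 of Sp5.

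**Figure D3:**
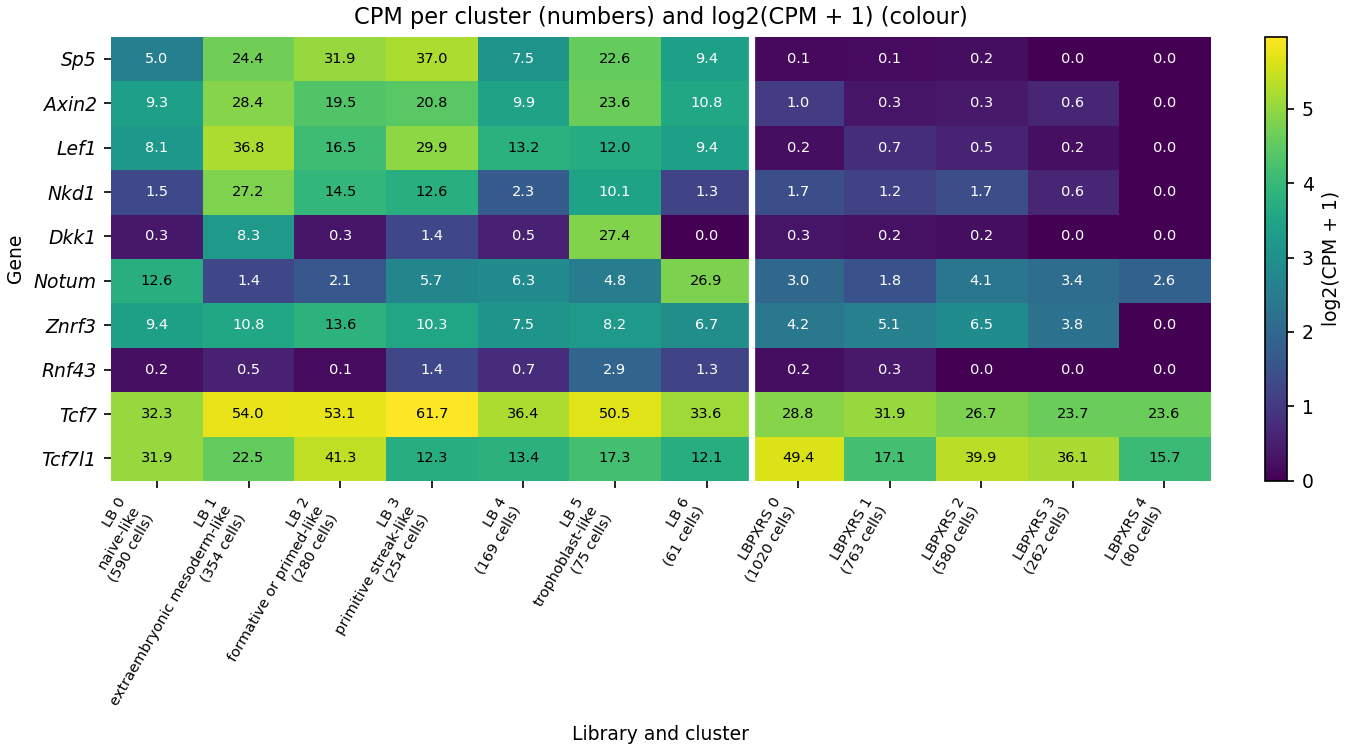
CPM of each gene (printed numbers) in the 7 LB and 5 LBPXRS clusters, with colour showing log2(CPM + 1); cell numbers stand beside the cluster names. Sp5, Axin2, Lef1 and Nkd1 are higher in the formative or primed, streak-like and extraembryonic mesoderm-like LB clusters than in any LBPXRS cluster, Notum is highest in naive pluripotent-like and shallow LB cells, and Tcf7l1 is highest in LBPXRS cluster 0 at 49.4 CPM.

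Genes among the 3 with the most similar profile over all 12 clusters are given for the 4 genes of highest mean CPM, by the Pearson correlation of log2(CPM + 1) over 6987 genes. They included Irgm1 (0.99) and Gng2 (0.98) for Sp5, Rab34 (0.97) and Gng2 (0.96) for Lef1, Ogfr (0.96) and Psmb8 (0.96) for Tcf7, and Selenoh (0.87), Dnajc19 (0.84) and Znrf2 (0.84) for Tcf7l1. The 12 points share 2 libraries, so the difference between the libraries enters each value; over the 7 LB clusters alone the correlation of Sp5 with Irgm1 was 0.93 and that of Lef1 with Gng2 0.64.

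T-positive cells were then set against the other LB cells. T was found in 530 LB cells (29.7%, median 24606 UMIs), and 1253 cells had no T UMI (median 25689 UMIs). Of the T-positive cells, 141 had a single T UMI and 272 had at least 5. Sp5 was 4.62-fold higher in the T-positive cells, Nkd1 2.24-fold, Lef1 1.89-fold, Axin2 1.68-fold and Tcf7 1.42-fold, while Tcf7l1 and Notum were lower. By size, 2 of the 9 genes past the filter (Sp5 and Nkd1) were at least 2-fold higher, against 3.42% of 12499 genes, and 0 were at least 2-fold lower, against 3.9%. With cells thinned to 5000 UMIs and T called again on the thinned counts (310 T-positive cells), Dkk1 was 2-fold lower (-1.74, from -0.23). Sp5 alone was at least 4-fold higher, against 0.52% of genes, and 0 were at least 4-fold lower, against 0.288%; the log2 ratio of Sp5 missed 4-fold in 4 alternatives (thinned cells, mean over cells, TMM scaling and without naive pluripotent-like cells, 1.60 to 1.99). Nkd1 was not 2-fold higher in the same 4 alternatives: its log2 ratio of 1.07 was 0.44 with thinned cells, 0.42 without naive pluripotent-like cells, 0.94 as a mean over cells and 0.97 with TMM scaling. Both groups are cells of 1 library, so the intervals cover counting error only.

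Sp5 had 40.6 CPM in T-positive cells (37.3 to 44.1) and 8.79 in the other cells (7.79 to 9.88). After thinning it was found in 13.9% of the T-positive (11.0 to 17.2) and 3.79% of the other cells (2.79 to 5.02). Nkd1 had 17.0 CPM (14.9 to 19.4) and 7.60 (6.68 to 8.62), Lef1 27.4 (24.6 to 30.3) and 14.5 (13.2 to 15.8), and Axin2 23.4 (20.9 to 26.2) and 14.0 (12.7 to 15.3). None of these intervals overlap between the groups. Tcf7 had 56.6 CPM in T-positive and 39.8 in other cells, a log2 ratio of 0.50.

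Tcf7l1 had 20.04 CPM in the T-positive cells (17.7 to 22.6) and 29.3 in the other cells (27.5 to 31.2), a log2 ratio of -0.53. Notum had 5.25 CPM (4.10 to 6.62) and 7.98 (7.03 to 9.02). Znrf3 (8.95 and 10.8 CPM), Dkk1 (2.74 and 3.38 CPM) and Rnf43 (12 and 14 UMIs) had overlapping intervals. The median log2 ratio over the 10 genes was 0.45, against 0.10 over all genes.

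Sp5 was higher with each step in T. It had 8.79 CPM in cells without T, 21.5 in cells with 1 T UMI (17.0 to 26.7), 32.4 with 2 to 4 (26.1 to 39.8), 41.6 with 5 to 9 (34.0 to 50.4) and 61.1 with 10 or more (54.0 to 68.8). Axin2 stood at 14.0, 15.04 and 18.2 CPM in the lowest 3 groups, and at 34.1 and 27.7 in the highest 2. Lef1 had 29.6 CPM at 2 to 4 T UMIs and 32.0 at 10 or more, with overlapping intervals. Nkd1 had 21.04 CPM at 2 to 4 T UMIs (16.01 to 27.1), 22.2 at 5 to 9 (16.8 to 28.8) and 14.3 at 10 or more (11.02 to 18.3), with overlapping intervals. Tcf7l1 went from 29.3 CPM without T to 25.5, 26.4 and 16.2 CPM in the next 3 groups and 13.6 CPM at 10 or more T UMIs (10.4 to 17.5).

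**Figure D4:**
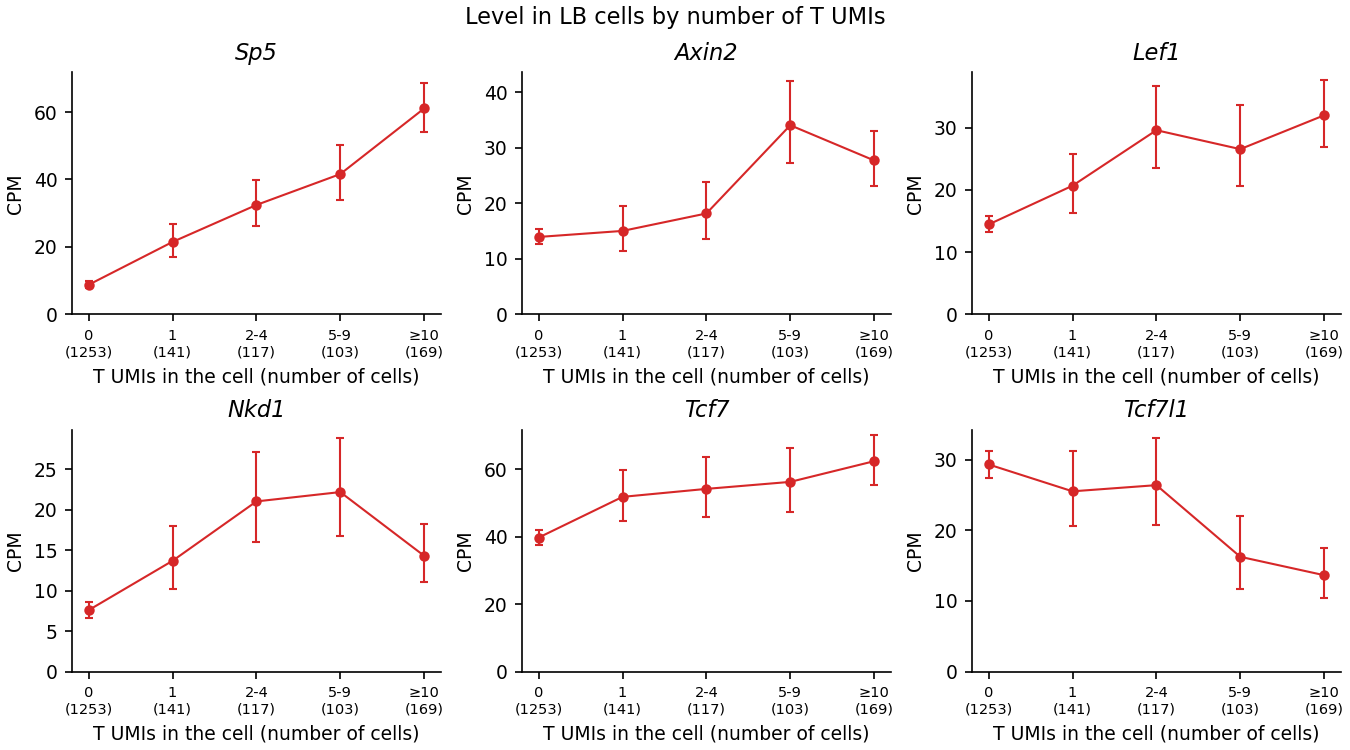
CPM of 6 genes in LB cells grouped by their number of T UMIs (0, 1, 2 to 4, 5 to 9, 10 or more; cell numbers below), with exact 95% Poisson intervals. Sp5 increases from 8.79 to 61.1 CPM over the 5 groups and Tcf7l1 is at 29.3 CPM without T and 13.6 CPM in the last group.

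T-positive cells were not the same mixture of clusters as the other cells. The primitive streak-like cluster supplied 227 of the 530 T-positive cells (42.8%) and 2.15% of the other cells, while naive pluripotent-like cells made up 7.36% of the T-positive and 44.0% of the other cells. T was not left out of the clustering and is among the markers that named the primitive streak-like cluster, so its shares are partly built in. The clusters within which T-positive cells are compared may also have been shaped by T. Of 10 naive markers, 8 were at least 2-fold lower in T-positive cells (summed level 378 against 1277 CPM, none without a UMI). Of 7 streak markers, T included, 4 were at least 2-fold higher (749 against 82.6 CPM), as were 3 of 7 nascent mesoderm markers (124 against 33.2 CPM). The comparison was therefore repeated within the 5 clusters that had at least 20 cells of each kind. Sp5 was higher in T-positive cells in 5 of 5 clusters, with log2 ratios from 0.74 to 3.03, and the counting interval of the ratio excluded equality in 4 of them. In naive pluripotent-like cells its log2 ratio was 2.07 (23 UMIs in 39 T-positive and 59 in 551 other cells), in formative or primed pluripotent-like cells 1.60, and in extraembryonic mesoderm-like cells 1.13.

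The other genes were less even within clusters. Axin2 was higher with T in formative or primed pluripotent-like cells (log2 ratio 1.10) and trophoblast-like cells (1.58), and within counting error of equality in the other 3 clusters. Lef1 was higher beyond counting error in the extraembryonic mesoderm-like cells (0.61) and Nkd1 there (0.52) and in formative or primed pluripotent-like cells (0.60). Tcf7l1 went both ways, at -1.19 in formative or primed pluripotent-like cells and 0.44 in extraembryonic mesoderm-like cells. Notum, lower with T over all LB cells, was lower beyond counting error in 0 of 5 clusters and higher in formative or primed pluripotent-like cells (1.62, 13 against 3 UMIs). Znrf3 was lower in extraembryonic mesoderm-like cells (-0.91) and Tcf7 higher in trophoblast-like cells (0.74). Dkk1 had 2 UMIs in the 29 T-positive trophoblast-like cells, all in 1 cell, and 55 in the 46 others, of which 15 cells had any; without the richest cell these were 27 UMIs, and the log2 ratio over all LB cells was 0.09 in place of -0.23.

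The rest of the pathway was read from a list of 84 genes, of which 59 passed the filter in the comparison of the libraries: 17 were at least 2-fold lower in LBPXRS and 9 at least 2-fold higher, beside 11.6% and 8.53% of all 12618 genes. Of the lower genes, Wnt3, Wnt5a, Wnt5b, Porcn, Fzd7, Rspo3, Myc, Cd44 and Sp8 were under 1 CPM in LBPXRS. They passed the filter through their LB level, so these counts rest in part on the filter. Sfrp5, among the higher genes, was under 1 CPM in LB (0.418) and passed through its LBPXRS level. Of 6 ligands past the filter 4 were lower, among them Wnt3, the streak-forming ligand (30.2 to 0.675 CPM, log2 ratio -4.22), and Wnt5a (16.2 to 0.232 CPM, -3.81). Wls, which carries WNT ligands to the cell surface, was at -2.63. Among 10 receptors 3 were lower (Fzd2 at -3.03, Fzd7 at -2.71 and Fzd10 at -1.85) and Fzd5 was higher (1.18; outside the naming rule and chosen after its values were seen). Rspo3, a secreted amplifier that acts against Rnf43 and Znrf3, had 35.0 CPM in LB and 0.212 in LBPXRS (-4.89), and its receptor Lgr4 was at -2.001.

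Of 9 genes of the destruction complex and tankyrases, 1 was at least 2-fold lower (Amer1, -1.50), while Csnk1a1, a kinase that marks beta-catenin, was at 0.74 and Tnks, a tankyrase, at -0.64, near the median of -0.59 of its chromosome 8. Of 8 transducers, 1 was at least 2-fold higher (Tcf7l2, the remaining TCF factor, 7.58 to 20.7 CPM, log2 ratio 1.34), while Bcl9, a beta-catenin cofactor, was at -0.84 and Ctnnb1, which encodes beta-catenin, at -0.55. Of 3 co-repressors, which bind TCF factors, Tle3 was at least 2-fold higher (22.9 to 51.7 CPM, 1.14), Tle4 was at -0.99 and Tle1 at -0.35. Of 9 other inhibitors, 3 were higher, among them Sfrp1, a secreted WNT binder (21.4 to 175 CPM, 2.97), and Dkk3 (2.21), and Sfrp2 was lower (-1.29). Of 5 further WNT targets, 4 were lower, with Myc at -3.62 and Tnfrsf19 at -1.42, and Ccnd1 was at -0.75. Of the 4, only Tnfrsf19 (3.86 CPM) was above 1 CPM in LBPXRS, and the rest passed the filter through their LB level. Of 4 genes that Tcf7l1 is known to repress, 3 were higher: Tfcp2l1 (2.19), Esrrb (1.40) and Nanog (1.22). All 4 are also among the 10 naive markers, whose summed level was 1010 CPM in LB and 1579 in LBPXRS, and the part of the mixture of cells in these values was not tested.

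In T-positive LB cells, 10 of 60 listed genes past the filter were at least 2-fold higher and 5 at least 2-fold lower, beside 3.42% and 3.9% of all 12499 genes. Of the higher genes, the ligands Wnt3a and Wnt8a and the target Cdx1 were under 1 CPM in the other cells (0.0626, 0.719 and 0.751). They passed the filter through their level in T-positive cells. Of 7 ligands, 5 were higher, among them Wnt3 (67.4 against 14.5 CPM, log2 ratio 2.15) and Wnt5b (1.91); Rspo3 was at 2.85 and Wls at 1.02. Of 11 receptors, Fzd10 was higher (1.43) and Fzd5 lower (-1.07), with Fzd7 at -0.74. Sfrp4, a secreted WNT binder, was also lower (-1.23; outside the naming rule and chosen after its values were seen). Sp8, a relative of Sp5, had 15.5 CPM in T-positive and 1.06 in other cells (2.995). None of 9 destruction complex genes or 8 transducers changed 2-fold. Klf2 (-1.82), Tfcp2l1 (-1.79) and Esrrb (-1.69), of the same 4 genes, were lower; they are among the 8 naive markers already given as 2-fold lower in T-positive cells, which held fewer naive pluripotent-like cells (7.36% against 44.0%), and were not compared within clusters.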

How the data were processed

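Per the file headers, the authors made the deposited UMI counts with Cell Ranger 4.0.0; the submitters' processing notes give the build mm10, and the annotation and cell calling are not given in the sources used here. Per the labels' protocols, libraries were 10x Genomics 3′ libraries sequenced on a NovaSeq. Barcodes with fewer than 1000 genes or over 10% mitochondrial UMIs were left out (225 of 2008 in LB, 406 of 3111 in LBPXRS). Scrublet in scanpy 1.11.5 marked 12 LB and 14 LBPXRS cells as doublets, so few that it may have missed some; they were kept.

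Counts were summed over cells and scaled to CPM; log2 ratios use a pseudocount of 1 CPM, which understates changes of low genes. Genes needed a mean CPM of at least 1 over the 2 groups compared. Ratios carry exact conditional binomial intervals (scipy 1.17.1). No replicate libraries exist, so calls go by size. The calculation was tested on simulated counts. T-positive cells had at least 1 T UMI. Clustering used 2000 variable genes, 30 principal components, 15 neighbours and Leiden resolution 0.5; names went to the marker class with most genes raised 2-fold over the library's other cells at 5 CPM or more, where 3 or more were raised, the median over detected markers was also raised 2-fold and no other class held more of the top 10 genes. Chromosomes came from GENCODE M21 (GRCm38) by Ensembl identifier, found for 99.6% of genes.

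The members and lists were chosen with earlier results of these data known. Pathway genes were named by rule: per role, up to 3 with the largest log2 ratio in size at a mean CPM of at least 5. Some named only for a level under 1 CPM fall outside this rule. TMM factors are from edgeR 4.0.16. Some genes of the lists of similar profiles are not reported here.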

Additional observations from a re-analysis of the deposited data

How the results depend on the processing

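No paired analysis was possible because each condition is 1 library. In the comparison of the libraries, the median log2 ratio over the 10 genes (-1.43) was -2.09 with a pseudocount of 0.1 CPM, -1.07 after subtraction of chromosome medians, -0.49 against naive pluripotent-like LB cells and -0.48 against those with 0 T UMIs, the last chosen after seeing the data; the other alternatives left it between -1.50 and -1.31, and the count of genes at least 2-fold lower ranged from 4 to 7. Naive pluripotent-like cells hold little Nkd1 and Dkk1 (1.51 and 0.302 CPM). The signs of 9 of the 10 genes held over 10 alternatives each; Rnf43, below the filter, changed sign, and Nkd1 was at 0.08 against naive pluripotent-like cells with 0 T UMIs. For T-positive cells, the count of genes at least 2-fold higher (2) was 4 when T-positive meant at least 5 T UMIs, where Axin2 (1.05) and Lef1 (1.01) passed, and 1 with a mean over cells, with TMM scaling, without naive pluripotent-like cells, and at 4-fold. With cells thinned to 5000 UMIs the count stayed 2, but Rnf43 (1.20) took the place of Nkd1 (0.44). Sp5 ranged from 1.60 to 2.49, and Notum, Znrf3 and Dkk1 changed sign in some settings. Leaving out cells with under 0.5% mitochondrial UMIs or the LB cell richest in Dkk1, both added after seeing the data, kept both counts. With 6 to 30 UMIs of Sp5, Axin2 and Lef1 in LBPXRS, depth limits any comparison within that library.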
